A study of Pinus pinaster with 24 samples.

Results

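The nitrate response of the developing cortex was followed by RNA sequencing of tissue cut by laser from the root tips of Pinus pinaster (maritime pine), a conifer. Of the 24 libraries in the series, the 6 labelled Developing_Root_Cortex were taken by their labels: 3 from seedlings given 3 mM potassium nitrate (labelled NO3K) and 3 from seedlings given 3 mM KCl. Both groups came from the Segura-Alcaraz provenance, were 1 month old, had been watered with distilled water and were then kept for 3 days on nutrients without nitrogen. Each received 80 mL of its solution and was collected after 2 h, so both had potassium at the same strength and differed in nitrate against chloride. The captures were cut by position and correspond to the cortex only approximately, per the labels' protocols. Neither the number of seedlings behind a library nor whether experiments 1 to 3 used separate cultures is stated in the labels, so each p-value here reflects the spread among these libraries alone, which may be technical.

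The root cortex is the ground tissue between the epidermis and the endodermis, and nitrate that enters the root crosses it on the way to the vascular tissue. In flowering plants such as Arabidopsis, nitrate acts as a signal as well as a nutrient: within minutes to hours it raises transcripts of high-affinity nitrate transporters, nitrate and nitrite reductase and their regulators, in part through transcription factors of the NIN-like family. Conifers often grow on soils where ammonium is the main nitrogen source. In these data the transcript IDs are not paired with gene names in the sources used here, so none of these genes could be looked up and no role is given to any ID. For the same reason the cortex identity of the captures could not be checked against marker genes.

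The 6 cortex libraries held 46536899 to 51517525 recovered reads, within the 45262154 to 51517525 of all 24 libraries, and a detection limit of 3 reads corresponded to 0.0556 to 0.0633 CPM. Of 51211 transcripts in the table, 42477 reached at least 1 CPM in at least 3 of the 6 libraries and were tested, and 8734 were left out. The 1872 transcripts with exactly 3 such libraries had a median cortex mean of 1.12 CPM, and the 1820 just outside, with 2 such libraries, had 0.900. Levels are CPM with no correction for transcript length, so they are compared between libraries and not between transcripts.

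The solutions did not separate the libraries along the main axis of variation. The first principal component of log2(CPM + 0.5) held 30.8% of the variance and set KCl replicate 1 apart from the other five libraries; the second held 23.3%, with KCl replicates 2 and 3 at one end and nitrate replicates 1 and 3 at the other. Across transcripts, Pearson's r was 0.954 to 0.965 between nitrate libraries, 0.923 to 0.944 between KCl libraries and 0.923 to 0.949 between solutions. No 2 replicates looked like 1 library deposited again (chi-square per transcript of 37.3 to 86.1).

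Transcripts marking another area were chosen without using the cortex libraries, and their share of the CPM was read in the cortex. Cortex cells may express these transcripts themselves, so the share cannot tell RNA carried over from neighbouring areas from RNA of the cortex. The 1356 cap-marking transcripts held 1.51% ± 0.396 of the CPM in KCl cortex libraries and 1.43% ± 0.378 in nitrate ones (SD, n = 3 each, exact permutation test, two-sided p = 0.9), against 13.8% to 21.3% in the cap itself. The 212 vascular-marking transcripts held 0.104% ± 0.0552 with KCl and 0.151% ± 0.0205 with nitrate (exact two-sided permutation p = 0.3), and the 38 meristem-marking ones held 0.0805% ± 0.0260 and 0.0683% ± 0.00954 (exact two-sided permutation p = 0.6). In their own areas the vascular-marking set held 0.387% to 1.65% and the meristem-marking set 0.142% to 0.277%. With 3 against 3 libraries the smallest possible p is 0.1. The groups overlapped in all 3 shares. Of these marking transcripts 914, 103 and 35 passed the filter of the cortex test. In bulk captures, fewer cells of a type and less RNA per cell cannot be told apart.

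**Figure D1:**
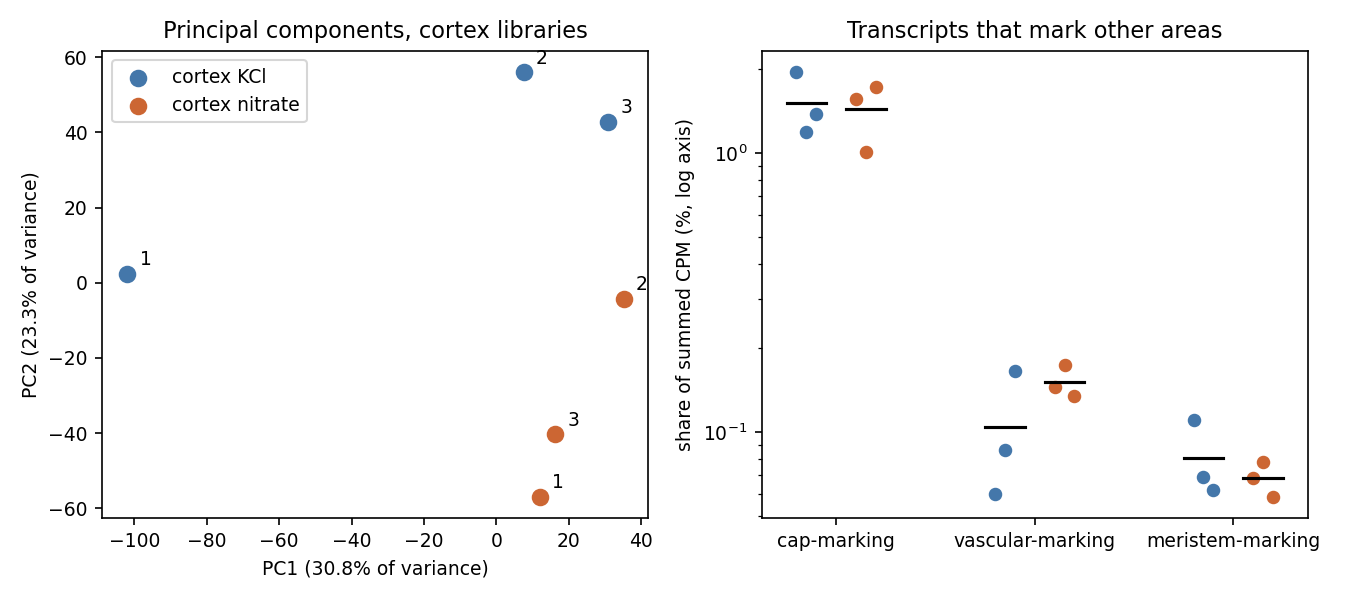
Left, scores of the 6 cortex libraries on the first and second principal components of log2(CPM + 0.5), numbered by replicate; KCl replicate 1 lies apart on the first axis. Right, share of each cortex library's summed CPM (percent, log axis) held by transcripts that mark the cap, the vascular tissue or the meristem, with points for libraries and bars for means; the solutions overlap for each set.

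A small group of transcripts was called, with large changes, while most tested transcripts had small measured changes after 2 h. A transcript that was not called is not shown to be unchanged. Of the 42477 transcripts 34 were called (0.0800%): 29 were higher with nitrate, or 0.0683%, and 5 lower, or 0.0118% (limma on log2(CPM + 0.5), Benjamini-Hochberg adjusted p below 0.05). The rises spanned 1.31 to 5.94 on the log2 scale with a median of 3.58, and the falls spanned -7.54 to -3.54, a size that depends on the added 0.5 CPM because nitrate values were at or near 0. Over all tested transcripts the median change was -0.00326, the middle 50% lay between -0.16 and 0.17, and 2.94% changed by at least 1 in either direction. An unadjusted p below 0.05 was found for 2738 transcripts, 6.45% of those tested, of which 1628 were higher and 1110 lower with nitrate.

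How many transcripts were called depended on the method and on single libraries. The count test of edgeR on recovered reads called 15 rises (0.0353%) and 3 falls (0.00706%), and of these 14 and 3 were also called by limma. DESeq2 called 278 (0.654%) and 88 (0.207%), among them all 29 rises and 5 falls. A limma fit over all 24 libraries called 81 (0.191%) and 22 (0.0518%), among them 27 and 5. Leaving out KCl replicate 1, the library that stood apart, gave 61 rises and 13 falls, including 28 and 5 of the listed ones. Without KCl replicate 2 there were 2 and 2, all of them listed ones, and without KCl replicate 3 there were 15 and 11, including 15 and 5. Leaving out nitrate replicate 2 gave 14 and 3, including 13 and 3, and leaving out nitrate replicate 3 gave 17 and 3, all listed. Without nitrate replicate 1, limma called 0 rises (1026 had an unadjusted p below 0.05, and edgeR also called 0) and 3 falls. Only 1 of these 3 falls was among the 5 listed. Across these 6 fits, the smallest change of any of the 29 rises was 1.23 and the weakest fall among the 5 was -3.19 on the log2 scale.

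**Figure D2:**
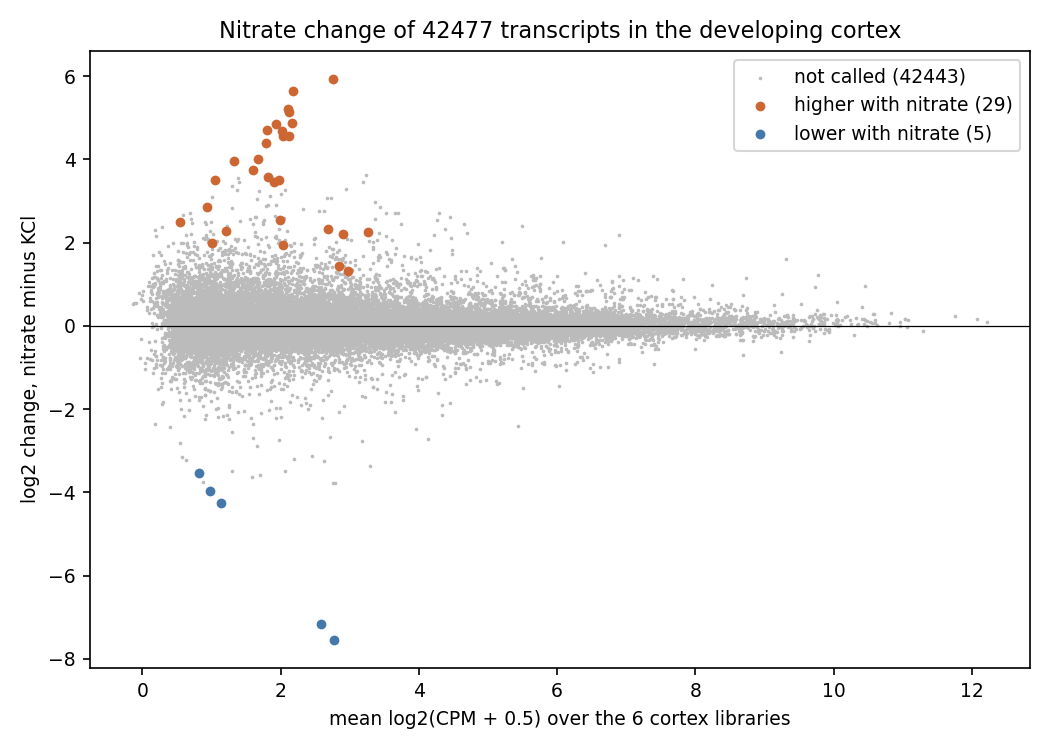
Change with nitrate (nitrate minus KCl, log2 scale) against mean log2(CPM + 0.5) over the 6 cortex libraries, 1 point per tested transcript. The 29 rises (1.31 to 5.94) and 5 falls are coloured; 1247 transcripts changed by at least 1 in either direction, and most of these were not called.

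The rises started from low levels. Mean levels of the 29 transcripts with KCl ran from 0.118 to 4.50 CPM with a median of 0.360, and with nitrate from 2.99 to 57.4 CPM with a median of 12.8. In 22 of the 29 the KCl mean was under 1 CPM, compared with 2.72% of all tested transcripts. This contrast is partly set by the filter: 21 of the 29 passed it through the nitrate libraries alone, as did 163 of all tested transcripts, and such a transcript had to differ. The 5 falls all passed through the KCl libraries alone, as did 95 transcripts in all.

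Summed over the 29 rises, KCl libraries held 28.5, 30.5 and 24.6 CPM, and nitrate libraries held 469, 639.8 and 323 CPM. Every nitrate library lay far above every KCl library, and the nitrate libraries differed among themselves by more than the KCl libraries did. Nitrate replicate 2 had the highest level of the 3 for 20 of the 29 transcripts and replicate 3 the lowest for 24. The 5 falls summed to 132, 296 and 176 CPM with KCl, and to 0, 0.0805 and 0 CPM with nitrate, where a total of 4 reads remained in replicate 2. For all 34 transcripts the KCl and nitrate libraries did not overlap. That was also so for 6.52% of tested transcripts in the rising and 6.55% in the falling direction.

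Many of the called transcripts lie side by side in the ID numbering. With called transcripts of the same direction joined when their numbers differed by at most 5, the 29 rises formed 11 runs, of which 7 held 2 or more members and 25 transcripts in all. The 5 falls formed 3 runs, 1 of them with 3 members. The sources used here do not say what the numbering stands for; neighbours may be isoforms or near-identical copies whose reads the counting could split, so the 34 transcripts are not 34 independent genes. Neighbours are common in the table, since 96.8% of tested transcripts had another within 5 numbers, and within the spans of these runs all tested transcripts were called.

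The longest rising run held 8 transcripts, and its summed level was 2.87, 2.53 and 1.74 CPM in the KCl libraries and 161, 231 and 88.4 CPM in the nitrate libraries. Its members rose by 4.02 to 4.87 on the log2 scale, with adjusted p from 0.00563 to 0.0184 by limma, and 7 of the 8 were also called by edgeR. Nitrate replicate 2 was the highest and replicate 3 the lowest, and the solutions did not overlap.

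The next run held 5 transcripts and went from 1.81, 1.26 and 0.898 CPM with KCl to 134, 241 and 97.6 CPM with nitrate. Its member pp_135403 had the largest rise of the 29, from 0.422, 0.264 and 0.429 CPM to 46.6, 91.4 and 34.2 CPM. The means were 0.372 ± 0.0932 and 57.4 ± 30.1 CPM (SD, n = 3 each), a 154-fold ratio. On the log2(CPM + 0.5) scale the change was 5.94 (standard error 0.346, adjusted p = 0.00542 by limma and 0.0261 by edgeR).

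The run of 4 transcripts rose from 2.53, 3.06 and 0.898 CPM in sum to 49.8, 41.9 and 33.2 CPM, with changes of 2.85 to 3.58 on the log2 scale. KCl replicate 3 was the lowest of the KCl libraries in this run, and 0 of its members were called by edgeR, which gave them adjusted p from 0.0504 to 0.141. It had limma adjusted p from 0.00775 to 0.0190.

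The transcript pp_103535, 1 of a pair, had 0.0422, 0.170 and 0.143 CPM with KCl, at 2 to 9 reads per library, and 7.05, 6.48 and 5.96 CPM with nitrate. Its mean rose from 0.118 ± 0.0672 to 6.50 ± 0.544 CPM (SD, n = 3 each), a 54.9-fold ratio, or 3.50 on the log2(CPM + 0.5) scale (standard error 0.190, adjusted p = 0.00491 by limma and 0.0261 by edgeR). Its 3 nitrate libraries lay close together, far above the KCl libraries. Its partner changed by 3.96.

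The remaining rises began from higher KCl levels or stood alone. Of the other 3 pairs, the first rose from 4.62, 6.24 and 5.43 to 30.9, 31.9 and 26.0 CPM in sum and the second from 6.33, 5.51 and 4.80 to 35.1, 28.5 and 22.6 CPM. The last pair had the smallest change of the called rises, from 7.45, 9.43 and 8.33 to 23.0, 25.1 and 21.7 CPM (1.31 and 1.44 on the log2 scale, limma adjusted p = 0.0386 and 0.0446). The 4 transcripts outside any run rose by 1.99 to 2.55 on the log2 scale.

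**Figure D3:**
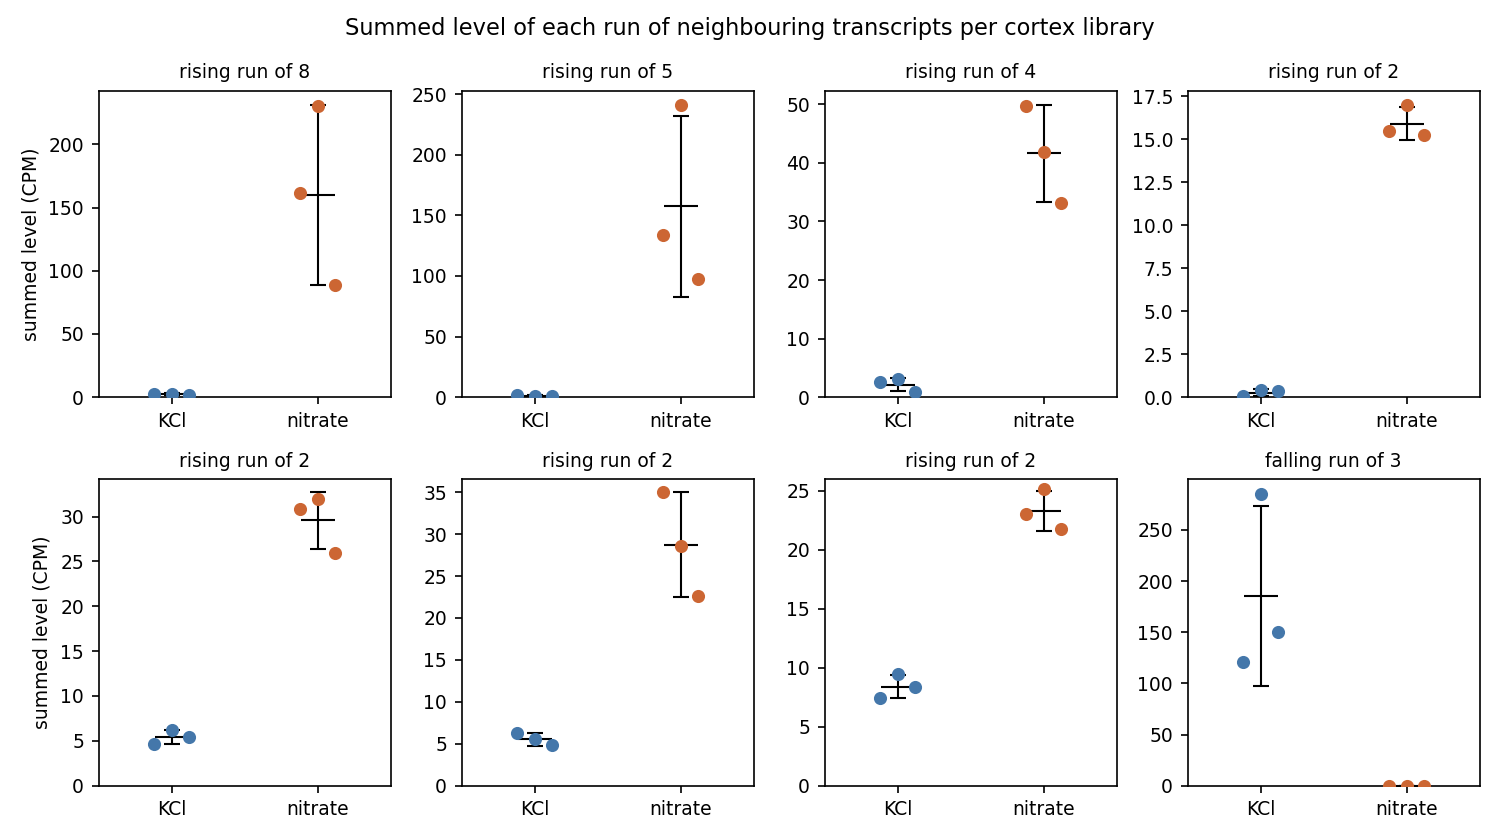
Summed CPM of each run of neighbouring called transcripts in the 3 KCl and 3 nitrate cortex libraries (points), with the mean and SD. In the 7 rising runs every nitrate library lies above every KCl library, and in the falling run of 3 all nitrate libraries are at 0.

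The falling transcripts were at or near 0 reads with nitrate. All libraries were collected after 2 h, so a fall is a lower level than with KCl, not a loss measured over time. Whether the seedlings given each solution already differed was not tested. The run of 3 falling transcripts held 120, 285 and 151 CPM in the KCl libraries and had 0 reads in each of the 3 nitrate libraries. Its member pp_64761 had 55.6, 101 and 64.8 CPM with KCl, which is 2636 to 5346 reads per library, and 0 reads with nitrate. Against a limit of 3 reads per library, the mean of 73.8 ± 23.9 CPM (SD, n = 3) was at least 1253-fold lower with nitrate. The adjusted p was 0.000547 by limma, the smallest of all tested transcripts, and 0.0261 by edgeR.

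The transcript pp_93274 had 8.25, 5.49 and 16.4 CPM with KCl and 0, 0.0201 and 0 CPM with nitrate, where the middle value is 1 read. KCl replicate 3 was the highest of its group, and the groups were far apart. The change was -4.24 on the log2(CPM + 0.5) scale (standard error 0.374, adjusted p = 0.0190 by limma and 0.0291 by edgeR). The fifth fall went from 3.69, 4.85 and 9.37 CPM to 0, 0.0604 and 0 CPM.

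Complete switching was taken as at least 1 CPM in all 3 libraries of 1 solution and 0 reads in all 3 of the other. Of the 42477 tested transcripts, 6 were present with KCl alone and 0 with nitrate alone. Among these 6, 3 were the called run, whose members may not be separate genes. The others had limma adjusted p from 0.0577 to 0.288. Each of the 29 rises had reads in at least 1 KCl library.

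Changes of at least 1 on the log2 scale without overlap between the groups were more common than calls. They were found in 464 transcripts in the rising direction, 1.09% of those tested, and in 150 in the falling direction, 0.353%. Beyond the called ones this leaves 435 and 145, with a smallest limma adjusted p of 0.0535 and 0.0577. The median level of those 435 was 1.77 CPM with KCl and 5.56 CPM with nitrate, and that of the 145 was 5.16 and 1.27 CPM.

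Most abundant transcripts moved little. The 1739 transcripts with a mean of at least 100 CPM held 50.2% of the CPM of the cortex libraries, and their changes lay between -0.26 and 0.46 from the 5th to the 95th percentile. Among them 23 changed by at least 1 on the log2 scale, 15 upward and 8 downward, and 0 were called by limma (90 had an unadjusted p below 0.05, smallest adjusted p = 0.288), 0 by edgeR and 20 by DESeq2. The limma calls lay in the transcripts with means of 1 to 3 CPM (4 rises and 1 fall), 3 to 10 CPM (15 and 2), 10 to 30 CPM (10 and 0) and 30 to 100 CPM (0 and 2).

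These transcripts were then read in the other areas of the root tip, whose libraries had no part in the cortex calls. These libraries are not independent of the cortex ones. Each cortex library was paired with the libraries of the same solution in another area. Deviations from the group means correlated across transcripts at 0.317 to 0.687 in all 18 pairs with the same experiment number. In the 36 pairs with another number they correlated at -0.464 to 0.00344. Deviations of 3 libraries from their mean sum to 0, so the positive values force mostly negative ones here, which are no separate evidence. The median change of the 29 cortex rises was 3.21 in the vascular tissue, 1.97 in the cap and 1.16 in the meristem, where the medians over all transcripts tested in the cortex were 0.0242, -0.0299 and -0.00798. The median change of the 5 falls was -1.88, -4.45 and -3.43 in the same order. All 29 rises had a change above 0 and all 5 falls one below 0 in each of the 3 areas.

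With the same limma test on the 6 libraries of each area, the vascular tissue had 21 rises (0.0497%) and 2 falls (0.00473%), the cap 2 (0.00485%) and 4 (0.00969%), and the meristem 1 (0.00238%) and 0. For meristem falls, 1014 transcripts had an unadjusted p below 0.05, and edgeR also called 0. Of the 29 cortex rises, 25 passed the vascular filter and 18 were called there, which is 18 of the 21 vascular rises. The 2 cap rises and the 1 meristem rise were among the cortex rises. All 29 cortex rises passed the cap filter, but only 14 passed the meristem filter. Of the 5 cortex falls, 4 were called in the cap, which are all 4 cap falls, and 0 in the meristem or the vascular tissue. There, 4 and 1 of the 5 passed the filter.

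**Figure D4:**
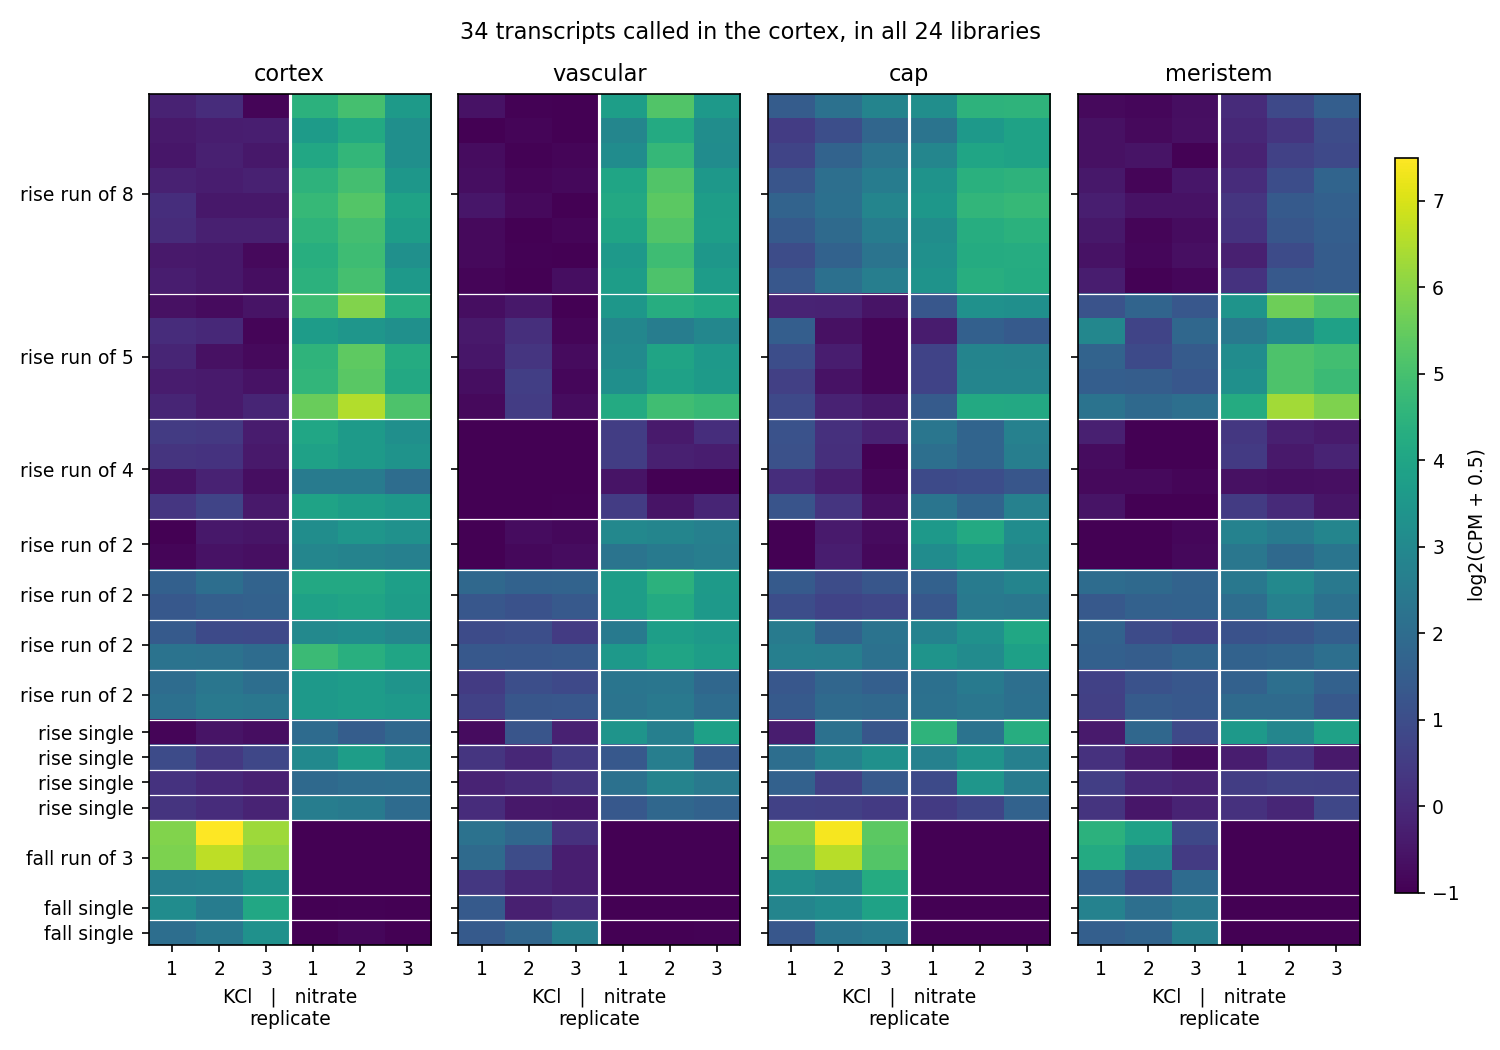
Level, as log2(CPM + 0.5), of the 34 transcripts called in the cortex (rows, grouped into runs) in the 24 libraries (columns, 3 KCl then 3 nitrate in each area). The falling transcripts are at or near the floor in the nitrate libraries of all 4 areas, while the run of 4 rising transcripts is brightest in the cortex with nitrate.

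The longer runs were also followed by their summed level elsewhere in the root tip. In the vascular tissue the run of 8 went from 0.823, 0.238 and 0.272 to 100.3, 255 and 88.5 CPM in sum. In the cap it had 14.5, 26.0 and 41.7 CPM with KCl and 67.9, 150.3 and 157 CPM with nitrate. The run of 5 had a base of 18.4, 11.0 and 13.0 CPM in the meristem with KCl and 51.0, 206 and 163 CPM with nitrate. The change of its member pp_135403 was 3.40 on the log2 scale in the meristem, 3.16 in the cap and 4.94 in the vascular tissue.

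The transcript pp_103535 changed by 3.92 in the cap, by 3.13 in the meristem and by 3.30 in the vascular tissue. Its cortex change differed from the mean of these by 0.05 (standard error 0.245 over 24 libraries, limma adjusted p = 1.00 for the difference). The transcript pp_64761 had 0 reads in all 12 nitrate libraries of the series. With KCl it had 46.8, 94.8 and 36.6 CPM in the cap, 17.8, 8.07 and 0.898 CPM in the meristem and 3.36, 1.47 and 0.326 CPM in the vascular tissue, so the size of its fall on this scale follows its KCl level. Its cortex change was 3.08 log2 units further down than the mean elsewhere (difference -3.08, standard error 0.726, adjusted p = 0.818 by limma).

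**Figure D5:**
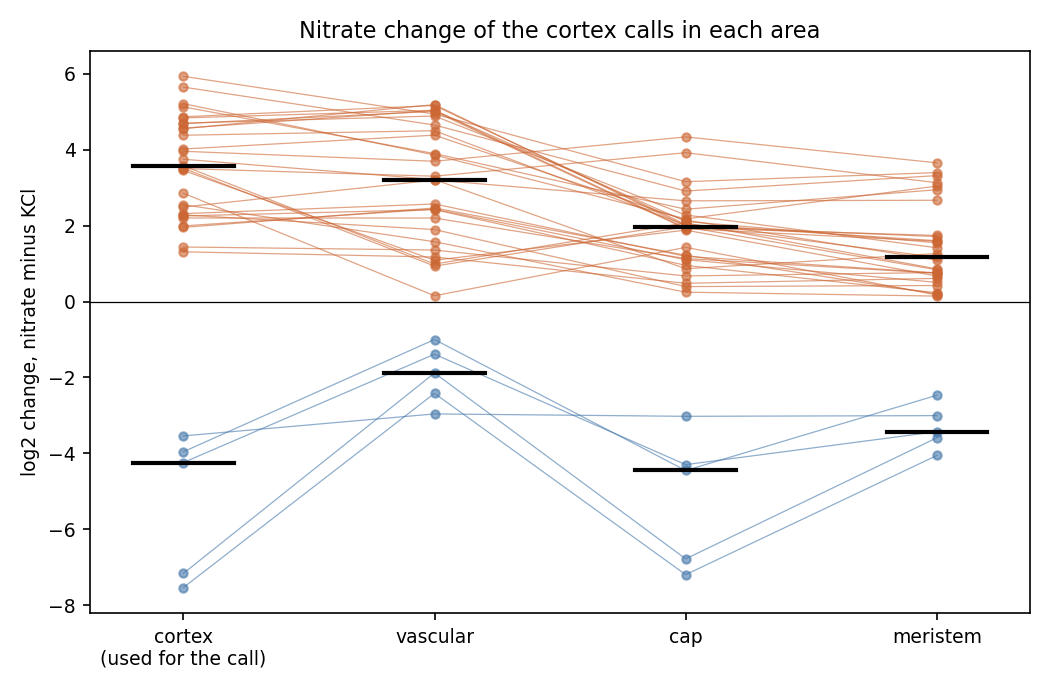
Change with nitrate (log2 scale) of each of the 29 cortex rises and 5 cortex falls in the 4 areas, 1 line per transcript, with bars at the medians. The cortex values chose the transcripts; in the vascular tissue, the cap and the meristem the rises stay above 0 and the falls below 0.

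A difference between the cortex response and the mean response of the other areas was called for 2 transcripts of 42477 (0.00471%, limma on 24 libraries), with 516 at an unadjusted p below 0.05. Since libraries with the same solution and number deviated together across areas, the set they form was also fitted as a random block, and 12 transcripts were then called. The edgeR test called 0, with 444 at an unadjusted p below 0.05. The count rests on single libraries as well, at 1 without KCl replicate 1, 7 without KCl replicate 2, 0 without nitrate replicate 1 or 2 and 6 without nitrate replicate 3.

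The transcript pp_188714, a member of the run of 4, had 0.169, 0.377 and 0.122 CPM in KCl cortex libraries and 5.31, 5.33 and 3.57 CPM in nitrate ones. In the cap it had 0.592, 0.302 and 0.0473 CPM with KCl and 1.38, 1.53 and 1.94 CPM with nitrate, and in the meristem and vascular tissue no library exceeded 0.186 CPM. Its change was 2.27 larger in the cortex than elsewhere (standard error 0.284, limma adjusted p = 0.00643, or 0.00143 with the block, and 1.00 by edgeR). The other members of the run had differences of 2.24 to 2.27 with adjusted p from 0.180 to 0.309. With KCl the mean of pp_188714 was 0.223 CPM in the cortex, 0.314 in the cap, 0.0636 in the meristem and 0 in the vascular tissue. From 0 reads, a change by the same factor cannot show in the vascular tissue. The cap, however, did not start below the cortex. Why the areas differed was not tested.

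In the other direction, pp_181097 had 14.9, 8.37 and 9.88 CPM in KCl cortex libraries and 0.404, 0.0201 and 1.26 CPM in nitrate ones. The groups did not overlap, but the cortex test alone did not call this change of -3.58 (limma adjusted p = 0.0998). In the other areas the level was at most 1.93 CPM in any library. Its change differed by -3.33 from the mean elsewhere (standard error 0.456, limma adjusted p = 0.0119, or 0.00143 with the block, and 1.00 by edgeR). The next positive difference, of pp_174772, was 2.57 with an adjusted p of 0.121, or 0.0201 with the block (limma). This transcript had 0.0211, 0.321 and 0 CPM in KCl and 7.58, 3.10 and 1.39 CPM in nitrate cortex libraries, and the cortex test gave an adjusted p of 0.395.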

How the data were processed

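RNA was sequenced from laser-captured root areas, and the 6 developing cortex libraries were compared by their labels. The tools named are bcl2fastq and BWA, per the submitters' processing notes. For the read counter, the reference transcriptome and the scaling, the sources used here give no name. The deposited values are a signal that the authors named CPM: column totals differ, so a factor beyond the library total was applied. All values (100%) were whole multiples of 1 read within 0.02 reads, and whole reads were recovered.

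The main test was limma 3.58.1 in R 4.3.3, with a variance trend, on log2(CPM + 0.5) of the 6 libraries, without a block. The planned test for CPM was kept for this signal. A fit of 24 libraries gave the difference from the other areas. edgeR 4.0.16 and DESeq2 1.42.0 were run on recovered reads. On simulated counts with known changes, the share of false calls was near the nominal level for limma and edgeR on the 6 libraries. That share exceeded the nominal level for DESeq2 and for both limma results of the 24-library fit, the cortex effect and the difference from other areas. The edgeR test on 24 libraries and array weights were not simulated. Each transcript was drawn independently, without deviations shared across a library, so the simulation cannot give the share of false calls in these data. Marking transcripts had at least 10 CPM and 16 times (meristem, 4 times) the level of both other non-cortex areas (plus 0.1 CPM). Deviations of same-numbered KCl and nitrate cortex libraries correlated at 0.123, 0.105 and -0.0257, and those of differently numbered ones at -0.149 to 0.0661. The numbers were not taken as pairs in the main test, though the labels do not settle whether they are. Between areas, same-numbered libraries of 1 solution correlated in all 18 pairs. The numbers come from the labels, but that they mark sets shared across areas was read from the values.

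At most 2 rising and 2 falling IDs per contrast are named: smallest p among called transcripts with an absolute change of at least 1 and no overlap, skipping IDs within 5 numbers of one already named; where fewer than 2 were called, the smallest p was taken. For the difference contrast the overlap criterion was not applied, since it has no 2 groups to compare. The comparison, lists and rules were chosen with earlier results of these data known. Intervals and limits cover counting error only.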

Additional observations from a re-analysis of the deposited data

Results flagged for a closer look

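The nitrate effect in the cortex differed from the mean effect in the cap, meristem and vascular tissue for 2 named transcripts, by a limma test of the difference itself. For pp_188714 the difference was 2.27 on the log2 scale with an adjusted p of 0.00643, and for pp_181097 it was -3.33 with an adjusted p of 0.0119. Both are near the floor in most libraries of the other areas, and edgeR called neither (adjusted p = 1.00 for both). With a pseudocount of 0.1 CPM the differences were 2.85 and -4.14 and neither was called. Both also missed the threshold without nitrate replicate 1 (adjusted p = 0.0545 and 0.0548 by limma) or 2 (0.0696 for both), and pp_181097 without KCl replicate 1 (0.0786). On simulated counts this test of the difference made more false calls than its nominal level. With 3 libraries in a group, outlying values were not tested.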

How the results depend on the processing

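The number of rises, 29, stayed within 1.5 times under both other pseudocounts, both filters, both scalings and array weights, at 22 to 29. So did the number of falls, 5, except with a filter of 5 CPM (2 falls). These counts do not say whether the same transcripts were called. The fit of all 24 libraries gave 81 and 22, edgeR 15 and 3 and DESeq2 278 and 88. With the replicate block (experiment number), 5 rises and 2 falls were called. The labels do not state whether the numbers pair these samples, and the main test did not use them as pairs. Leaving out 1 library gave 0 to 61 rises and 2 to 13 falls. The difference from the other areas, 2 transcripts, became 0 with a pseudocount of 0.1 CPM (435 at an unadjusted p below 0.05), 10 with 1 CPM, 0 with a filter of 5 CPM (186 at an unadjusted p below 0.05), 0 by edgeR (444), 12 with the replicate block of sets and 0 to 7 without 1 cortex library. The 4 named transcripts of the cortex test kept their direction under every alternative. Leaving out 1 library, pp_93274 missed the threshold in 4 of 6 fits (without KCl replicate 2 or any nitrate replicate, adjusted p up to 0.146), pp_135403 in 2 (without KCl replicate 2 or nitrate replicate 1, up to 0.0612), pp_103535 in 1 (without nitrate replicate 1, 0.0645) and pp_64761 in 0 (up to 0.0130, all limma). Elsewhere, pp_103535 and pp_93274 missed the threshold with a filter of 5 CPM (adjusted p = 0.0855 for both) and, with pp_135403, under the block (0.0508, 0.109 and 0.0508, all limma). The range of adjusted p over the settings other than left-out libraries was 3.63e-35 to 0.0855 for pp_103535, 1.78e-60 to 0.0508 for pp_135403, 1.29e-28 to 0.0272 for pp_64761 and 2.58e-13 to 0.109 for pp_93274, the lowest from DESeq2. The cap-marking share differed between solutions by -0.0737 percentage points, by 0.0449 and 0.00784 with a lower and a higher fold, and by -0.231 to 0.149 without 1 library. The meristem-marking share differed by -0.0122, by 0.0298 with a lower fold, and by -0.0214 to 0.00268 without 1 library; the vascular one by 0.0253 to 0.0783. With 3 against 3 libraries the smallest exact permutation p is 0.1, and it is no smaller without 1 library. These shares therefore could not pass a threshold of 0.05, and no conclusion is drawn from that. The cause of these shifts was not tested. The scalings moved the median change by less than 0.1. Depth limits values below 0.0556 to 0.0633 CPM, the level of 3 reads in these libraries.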

Other observations

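The longest rising run and the falling run of 3 lie close together in the ID numbering, with a smallest gap of 55 numbers between a member of one and a member of the other. In the cortex one went from 2.38 ± 0.582 to 160.1 ± 71.1 CPM in sum and the other from 185 ± 87.9 to 0 CPM (SD, n = 3 each). In the cap the rising run was present with KCl at 27.4 ± 13.7 CPM, while the falling run had 159 ± 93.9 CPM (SD, n = 3 each).

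In the whole series, 3 of the 5 falling transcripts had 0 reads in all 12 nitrate libraries, against 3040 to 29954 reads summed over the 12 KCl libraries. The other two had 1 and 4 reads with nitrate.

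A rising transcript outside any run stood lower in the cortex than in the other areas, at 2.99 ± 0.557 CPM with nitrate, compared with 15.3 ± 9.80 in the cap, 10.8 ± 3.57 in the meristem and 9.88 ± 3.90 in vascular libraries (SD, n = 3 each). Its change with nitrate was 2.49 on the log2 scale in the cortex, 2.65 in the cap, 2.67 in the meristem and 3.20 in the vascular tissue.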
